A study of Mus musculus with 2 samples.

Results

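The natural killer gene complex is a stretch of mouse chromosome 6 that holds genes of C-type lectin receptors, and 10 genes were examined here: 9 receptor or lectin genes, among them Cd69, and the long non-coding RNA gene 2310001H17Rik. They were looked up by name in the deposited table of genes near STAT5 binding regions, and 9 of the 10 were among its 4934 genes. Klrb1f had no row and therefore no assigned region. The table came from chromatin immunoprecipitation with an anti-STAT5 antibody followed by sequencing (ChIP-seq), which recovers and sequences DNA bound by a protein. The cells were OT-I CD8 T cells of strain C57BL/6, whose transgenic antigen receptor recognises SIINFEKL, a peptide of ovalbumin. After transfer into mice the cells were primed by SIINFEKL and by costimulatory CD134 and CD137 agonists given together, and they were recovered from spleen by sorting 4 days later. The control group was 1 library of untreated cells. For the IL-2 group, also 1 library, cells were kept in vitro for 1 hour with 0.5 µg/ml IL-2. Both groups had received the same priming. The treatment label of the control is none and gives no time in vitro. If control cells were not kept in vitro, IL-2 and the hour of culture cannot be told apart. Since each group was a single library, the differences below have no replicate check and no p-value.

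Lectin receptors of this complex are type II membrane proteins found on natural killer cells and, in part, on activated CD8 T cells, where they raise or restrain killing after meeting ligands on other cells. IL-2 signals through its receptor to phosphorylate STAT5, which moves to the nucleus and binds DNA, classically at the palindrome TTCNNNGAA. The labelled cell type could not be checked by expression in these data. As a description of binding, 6 of 7 T cell marker genes were listed, 3 of 6 natural killer cell markers, 0 of 4 B cell markers and 0 of 4 myeloid markers, where 19.1% of 21896 protein-coding genes were. With so few genes the counts of 0 do not set those lists apart. Cd3d and Cd3g shared a region, and the natural killer cell marker Klrb1c is itself one of the members. IL-2 heights of the T cell markers ranged from 13 at Cd8b1 to 42.3 at Cd8a, and 4 of the 6 lay under the median of all listed genes. Those of the natural killer cell markers were 22 at Itga2, 19 at Klrb1c and 16 at Eomes.

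The place of the genes did not match their shared name in 1 case. Klrb1c, Clec2d, 2310001H17Rik, Cd69, Klre1, Klrd1, Klrk1 and Klrc1 had their starts within 890 kb of each other. Klrg1 lay 6506 kb from the nearest of these, Klrb1c, on the same chromosome, and is outside the complex by position. All coordinates are on mm10.

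Promoter windows, from 250 bases before to 50 bases after a gene start, were present for 7 of the 10 members in the RefSeq table of GRCm38.p6, which is the mm10 build. Cd69, Klrd1 and Klrg1 had no window and were not searched. The 3 windows below are shown because they hold the window closest to a region (Clec2d) and the only matches to a STAT-type palindrome (2310001H17Rik and Klrb1f). Capitals mark matches to TTCNNNGAA or to the wider TTCNNNNGAA, searched on both strands. The windows are chr6:129180365-129180664 on the plus strand for Clec2d, chr6:129237996-129238295 on the minus strand for the second start of 2310001H17Rik, and chr6:129045651-129045950 on the plus strand for Klrb1f.
Clec2d: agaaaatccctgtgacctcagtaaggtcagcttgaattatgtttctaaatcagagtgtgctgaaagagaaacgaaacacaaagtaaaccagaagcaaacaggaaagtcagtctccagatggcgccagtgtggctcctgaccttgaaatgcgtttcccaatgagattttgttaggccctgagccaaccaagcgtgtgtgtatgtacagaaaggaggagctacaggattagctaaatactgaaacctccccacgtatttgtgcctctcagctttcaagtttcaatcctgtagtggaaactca
2310001H17Rik: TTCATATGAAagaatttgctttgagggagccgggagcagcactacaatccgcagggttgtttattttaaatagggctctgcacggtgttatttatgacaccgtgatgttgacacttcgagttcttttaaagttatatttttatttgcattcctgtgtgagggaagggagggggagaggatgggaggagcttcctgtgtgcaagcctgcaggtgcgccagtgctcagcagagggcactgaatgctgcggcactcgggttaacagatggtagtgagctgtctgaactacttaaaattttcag
Klrb1f: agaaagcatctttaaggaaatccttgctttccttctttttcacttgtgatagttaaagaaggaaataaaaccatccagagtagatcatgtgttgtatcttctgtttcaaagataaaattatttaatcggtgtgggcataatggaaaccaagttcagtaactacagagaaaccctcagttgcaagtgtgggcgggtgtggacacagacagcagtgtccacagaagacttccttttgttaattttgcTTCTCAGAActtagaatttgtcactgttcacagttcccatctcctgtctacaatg

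TTCNNNGAA was found in 1 of the 9 member windows, that of Klrb1f, against 8.30% of all 32851 promoter windows. The match, TTCTCAGAA, began at base 246 of the window, in the gene that had no assigned region. TTCNNNNGAA was found in 1 of the 9 windows, as TTCATATGAA at base 1 of the window of 2310001H17Rik, against 6.95% of all windows. Among the 4589 windows of listed genes the shares were 10.4% for TTCNNNGAA and 5.75% for TTCNNNNGAA. The Clec2d window held neither palindrome, and the nearest region had its position 8 bases past the end of the window. These matches describe the letters of the windows only.

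Regions called in the IL-2 library were assigned to all 9 listed members, 22 distinct regions of 5703 in the table. Of the 22, 5 were assigned to more than 1 gene (22.7%, against 30.1% of all regions). None of the 22 was shared with a gene outside the members. The number of regions per gene was 6 for 2310001H17Rik, 5 for Klrd1, 4 for Klrk1, 3 each for Klre1 and Clec2d, 2 each for Cd69 and Klrc1, and 1 each for Klrb1c and Klrg1. More than 1 region was thus listed for 7 of the 9, against 33.3% of all listed genes. Among the 27 assignments of a region to a member, 11 were downstream of the gene, 9 upstream and 7 within it. The downstream share was 40.7%, against 20.3% over all listed genes. Assignments count a shared region once for each gene, so this is not a share of distinct regions. The regions at 129604864, 129607008 and 129610048 were each counted as downstream of both Klrd1 and Klrk1. Those at 129586960 and 129593792, downstream of Klre1, were upstream of Klrd1 and within it. A distance of at most 1 kb to a listed gene's start was found for 3 of the 22 (13.6%, against 27.5% of all regions), those being 57 bp inside Clec2d, 190 bp inside Klrc1 and 247 bp upstream of Cd69. Regions 1026 bp inside 2310001H17Rik and 1086 bp upstream of Klre1 lay just past this limit. At 5 kb the order of the shares turned, with 13 of the 22 (59.1%) against 46.0% of all regions.

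**Figure D1:**
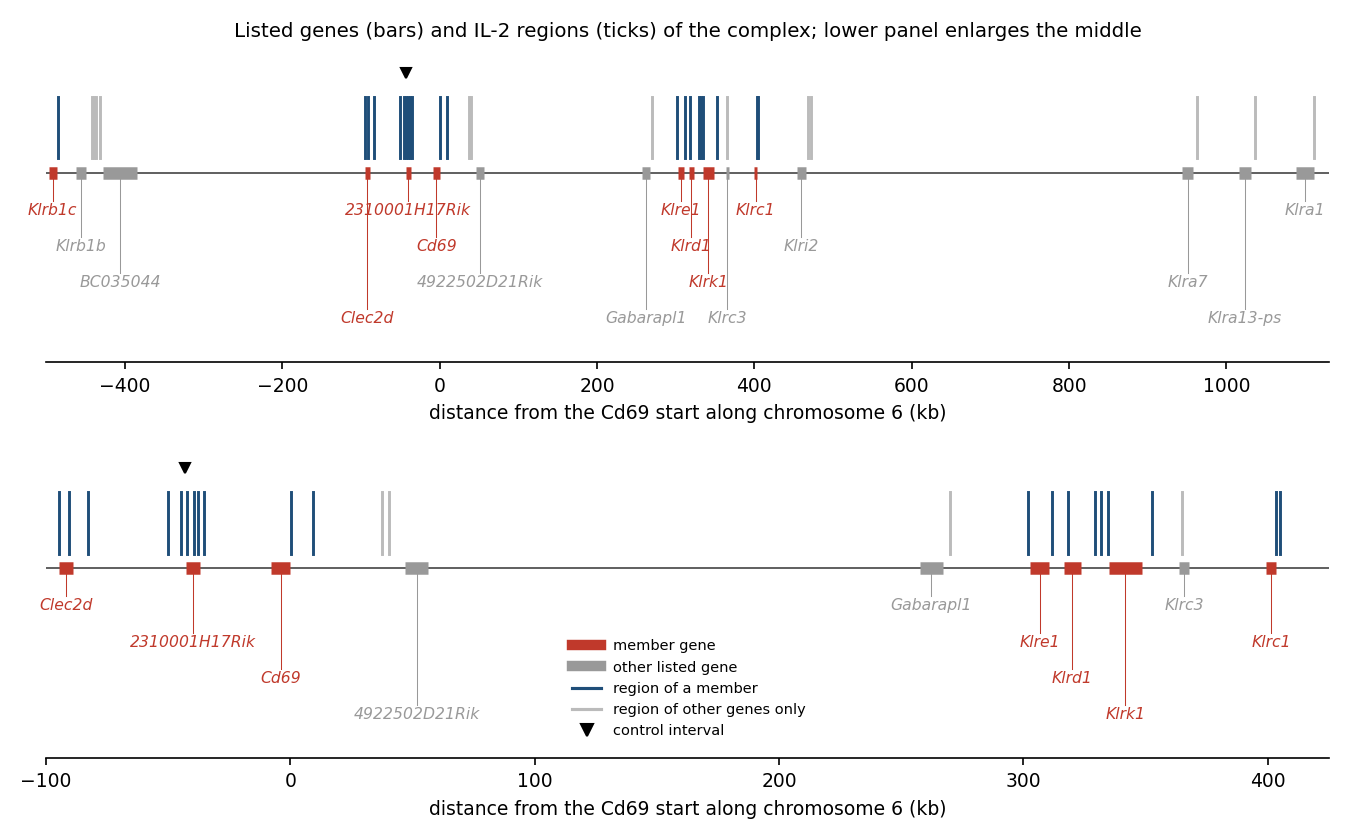
Listed genes (bars) and IL-2 regions (ticks) by distance in kb from the Cd69 start along chromosome 6, with members in red and their regions in blue, other listed genes and their regions in grey, and a triangle at the control interval. The 6 regions of 2310001H17Rik lay between Clec2d and Cd69, and Klrg1 lies outside the plotted span.

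The values that follow are peak heights in the authors' signal units, as means over the regions of a gene. For comparison, the 4934 genes of the table had a median of 5 in the control library (interquartile range 4 to 5.8) and of 20.75 in the IL-2 library (15 to 33). To form a ratio, 5 was added to both heights before division, which understates the fold of the heights, and the log2 value is given. Every gene is in the table because an interval, the authors' term for a called region, lies near it, and for 100% of them an IL-2 interval was called, which selects ratios in favour of IL-2.

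Binding near most members was of low height, and 2310001H17Rik and, by a small margin, Klre1 lay above the IL-2 median of all listed genes. The IL-2 height lay under the median of all listed genes for 7 of the 9 members, where 50% of all genes lie by definition. The median of the 9 was 4.25 in control and 15.6 with IL-2, with a median log2 ratio of 1.16 against 1.42 over all listed genes. The ratio was 2 or more for 8 of the 9, where 83.8% of the whole table passed, so this count was near the background. It was 4 or more for 1, where 23.1% of the whole table passed. As deposited, the IL-2 height was above the control height for 9 of 9 members, as it was for 100% of all listed genes, but after IL-2 heights were scaled down so that both libraries had the same median over listed genes it was higher for 3 of 9, against 58.7% of all genes. That scaling moved the median log2 ratio of all listed genes by -1.33. The scaling of the libraries before deposit is not stated in the labels or the file.

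**Figure D2:**
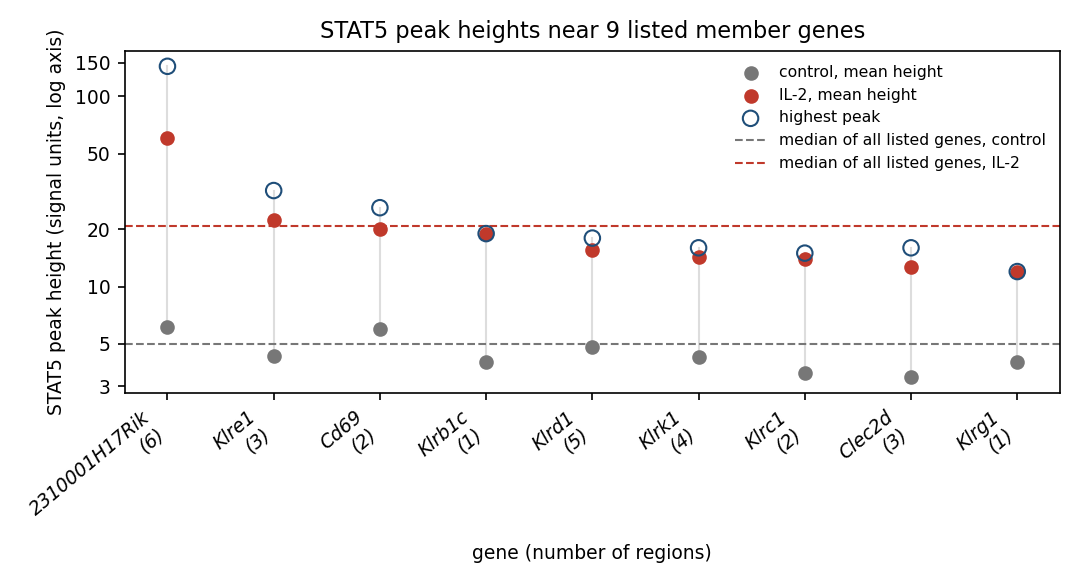
Mean STAT5 peak height in signal units (log axis) in the control library (grey), in the IL-2 library (red) and the highest peak (blue circle) for the 9 listed members, ordered by IL-2 height, with the number of regions in brackets and dashed lines at the medians of all listed genes. Control heights sit between 3.33 and 6.17, and 2310001H17Rik has the only IL-2 mean above 22.33.

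2310001H17Rik, a long non-coding RNA gene at chr6:129232623-129238482 on the minus strand, had mean heights of 6.17 in control and 60.7 with IL-2 and a highest peak of 144. Its log2 ratio was 2.56, the largest of the members, and 0.81 after the scaling to equal medians. Its 6 IL-2 regions spanned 14.8 kb, with 3 within the gene (1026, 2706 and 5458 bp from the start), 1 upstream at 1646 bp and 2 downstream. The downstream region at 129225360 lay within another RefSeq gene, Gm38906. The deposited means do not say which region held the peak of 144, but the other 5 together had a height of 220, a mean of 44.0, which is above the highest peak of every other member. Of all 4934 listed genes 45 had a higher peak (0.912%). Among the 42 genes with 6 regions, 1 had a higher IL-2 mean and Osbpl3 had the same. The last of the regions was 35.2 kb from the start of Cd69, and the table assigned none of them to Cd69.

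The same gene was the only member with an interval called in the control library, which 0.243% of all listed genes had (12 of 4934). The control interval lay at position 129232160, just past the 3′ end of the gene, 864 bp from one IL-2 region and 1776 bp from another. The table counts 7 intervals but 6 regions for the gene, so the control interval was merged with an IL-2 region. The mean control height over the gene was 6.17, and the height at the control interval alone is not given. For the other 8 listed members the control column held 0 and the IL-2 column 1.

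Cd69 encodes an early activation lectin that keeps lymphocytes in tissue by drawing the receptor S1PR1 off the cell surface. It had heights of 6 in control and 20 with IL-2, a log2 ratio of 1.18 that became -0.16 after scaling. Its regions lay 247 and 9319 bp upstream of the start (positions 129275616 and 129284688), and neither was shared. The highest peak was 26, so the other region had a height of 14, and the table does not say which of these lay next to the start. Among the 873 genes with 2 regions 36.4% had a lower IL-2 height. The 5 other genes with 2 regions nearest to Cd69 in the log2 heights of both libraries were B230319C09Rik, BC028528, C920021L13Rik, Zfp683 and Runx3, with control heights of 6 and IL-2 heights from 19 to 20.5. BC028528 and C920021L13Rik, both on chromosome 3, had the same heights and the same highest peak of 27, so they may not be separate cases. All 5 are likenesses in 2 libraries and rest on gene means.

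Clec2d encodes Clr-b, a ligand of the inhibitory receptor that Klrb1b encodes. Its mean heights were 3.33 in control and 12.7 with IL-2, and its highest peak was 16. The control height was the lowest of the members, and 11.2% of all listed genes had a lower IL-2 height. The 3 regions lay 57 and 3929 bp inside the gene and 11993 bp from its start, past its end. Their heights added up to 38, so each lay between 6 and 16. The log2 ratio was 1.08, and -0.05 after scaling.

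Klre1, Klrd1 and Klrk1 stand side by side and share regions. Klre1 encodes a receptor that pairs with Klri proteins, Klrd1 encodes CD94, the partner of NKG2 chains, and Klrk1 encodes NKG2D, an activating receptor for stress-induced ligands. Klre1 had 4.33 in control and 22.3 with IL-2, a highest peak of 32 and a log2 ratio of 1.55. Klrd1 had 4.8 and 15.6, a highest peak of 18 and a log2 ratio of 1.07. Klrk1 had 4.25 and 14.25, a highest peak of 16 and a log2 ratio of 1.06. After scaling the log2 ratio of Klre1 was 0.15, that of Klrd1 -0.16 and that of Klrk1 -0.13. The means of these genes are not independent, since 2 regions belong to both Klre1 and Klrd1 and 3 to both Klrd1 and Klrk1. All 5 regions of Klrd1 were shared.

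The sums and highest peaks of the neighbours together narrowed the IL-2 heights of these 7 regions. The region at 129577200 had 32. It lay 1086 bp upstream of the Klre1 start in the deposited table, but within the longer RefSeq model of that gene. The 2 regions shared by Klre1 and Klrd1, at 129586960 and 129593792, had 17 and 18 in an order the table does not give. The 3 shared by Klrd1 and Klrk1 each lay between 11 and 16. The region 4175 bp upstream of Klrk1, at 129628016, had 14. Of the block, the region next to Klre1 was thus the highest, and the 6 others lay at or below 18. For comparison, the median IL-2 height was 18 over the 3292 genes with 1 region. Over the means of all listed genes, which may average several regions, it was 20.75. Klrd1 and Klrk1 stood low for genes with many regions. Among the 108 genes with 5 regions 2.78% had a lower IL-2 height than Klrd1, and among the 189 with 4 regions 1.59% had a lower one than Klrk1.

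**Figure D3:**
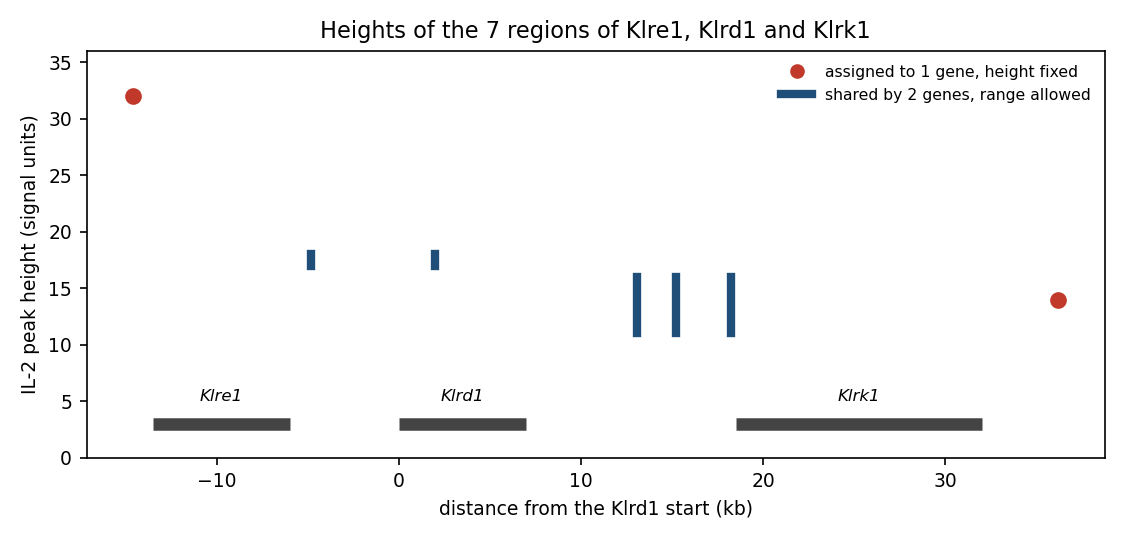
IL-2 peak height in signal units of the 7 regions of Klre1, Klrd1 and Klrk1 by distance in kb from the Klrd1 start, with genes as dark bars, dots where 1 value fits the deposited means and bars over the range allowed otherwise. The dot at the left, 32, is the region of Klre1 alone, and the shared regions lie between 11 and 18.

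Klrc1 encodes NKG2A, which forms with CD94 an inhibitory receptor for the class Ib molecule Qa-1. It had 3.5 in control and 14 with IL-2, a log2 ratio of 1.16 that became -0.02 after scaling. Its regions lay 190 bp inside the gene and 1618 bp upstream in the deposited table, and both are within the longer RefSeq model. Their heights were 15 and 13, in an order not given.

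Klrb1c encodes NK1.1, an activating receptor of natural killer cells in this strain. It had 1 region, 2015 bp upstream at 128790656, with 4 in control, 19 with IL-2 and a log2 ratio of 1.42 (0.09 after scaling). Klrg1 encodes an inhibitory receptor for cadherins and marks terminal effector CD8 T cells. It had 1 region, 6319 bp upstream at 122289152 and outside any RefSeq gene, with 4 in control and 12 with IL-2. Klrg1 was the only member under a ratio of 2 (log2 ratio 0.92, and -0.19 after scaling), and 5.92% of all listed genes had a lower IL-2 height. Klrb1f, a gene of the same family as Klrb1c at chr6:129045837-129059724, had no assigned region.

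Several other genes of the complex had higher mean heights than most members. Between the regions of Klrb1c and Klra1, 17 genes were listed, 8 members and 9 others. The 9 others had IL-2 heights from 12 to 75 with a median of 40, against 12.7 to 60.7 with a median of 17.3 for the 8 members. The highest peak of the span, 144, was that of the member 2310001H17Rik, and the highest among the others was 75. Control heights ranged over 2 to 7 for the others and 3.33 to 6.17 for the members. The ratio was 4 or more for 5 of the 9 others and 1 of the 8 members, where 23.1% of the whole table passed. This difference was not tested, since neighbouring genes in 1 library per group are not replicates. Of the 38 protein-coding genes in this span 14 were listed (36.8%), against 19.1% of 21896 in the genome. The span was bounded by regions of listed genes and holds members chosen with earlier results known. The difference in share was therefore partly set in advance, and nothing is drawn from it.

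**Figure D4:**
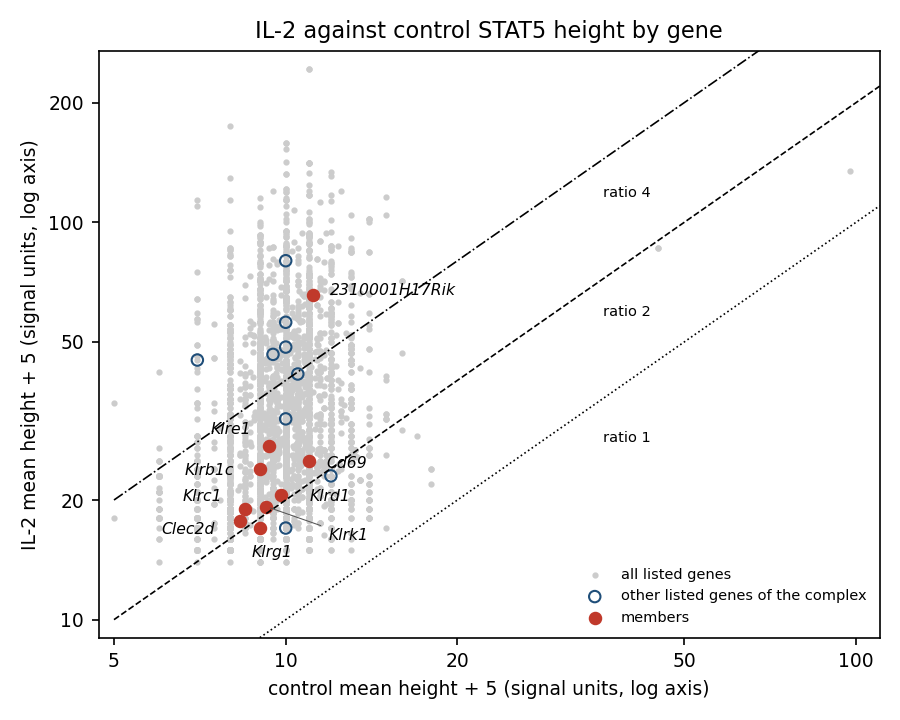
Mean IL-2 height plus 5 against mean control height plus 5, in signal units on log axes, for all 4934 listed genes (grey), the members (red) and the other listed genes of the complex (blue circles), with lines at ratios of 1, 2 and 4. The members other than 2310001H17Rik lie between a log2 ratio of 0.92 and 1.55, and 5 of the 9 other genes lie above the line at 4.

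From a list of 41 further genes of the complex and its border, 10 were listed, where 19.1% of all protein-coding genes were. Of the 10, 7 passed the ratio of 2, as did 83.8% of the whole table. The median log2 ratio of the 10 was 1.66. Gabarapl1, an autophagy gene, had 5 in control and 75 with IL-2 at a region downstream of it. Klri2, which encodes a partner of the Klre1 protein, had 5 and 51 over 2 upstream regions. Klrb1b, the receptor of Clr-b, had 5 and 43.5. Klrc3, next to Klrk1, had 2 and 40 at a region 2808 bp inside the gene. Klra1, Klra7 and Klra13-ps, of the Ly49 family, had 5 and 27, 7 and 18, and 5 and 12. Styk1 had 3 and 20, Magohb 3 and 16, and Ybx3 4 and 12, with a region shared by Styk1 and Magohb. BC035044 (4.5 and 41.5) and 4922502D21Rik (5.5 and 36.5), which were not on the list and are named after their values were seen, complete the 9 other genes of the span.

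Adaptors, ligands and partners of these receptors were listed for 16 of 34 names, of which 30 were RefSeq symbols, and 19.1% of all protein-coding genes were listed. Of the 16, 10 passed the ratio of 2, as did 83.8% of the whole table. Their median log2 ratio was 1.08. Hcst and Tyrobp encode the signalling adaptors DAP10 and DAP12 and shared a region with 4 in control and 14 with IL-2. S1pr1, the partner of CD69, had 6 and 24, and Klf2, a transcription factor that drives S1pr1, had 8.33 and 20.7 and also a control interval. Ptpn6, a phosphatase recruited by inhibitory receptors, had 4.67 and 21.7, and Lck, a kinase of T cell receptor signalling, 4.4 and 21. Pik3r1 had 4 and 26, Grb2 4.5 and 23.5, Malt1 6 and 28.3, Bcl10 5 and 16, Vav1 4.67 and 15.3, and Zap70 6 and 13. Among ligands, H60b, which binds NKG2D, had 4 and 12 at a region 24318 bp from its start, and H2-D1 had 5 and 12. Myl12a and Myl12b, reported ligands of CD69, shared a region with 4 and 12. KLRG1 binds cadherins, and no region was listed for the cadherin genes Cdh1, Cdh2 and Cdh4. None was listed for H2-T23, which encodes Qa-1.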

How the data were processed

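STAT5 ChIP-seq was deposited for 1 control and 1 IL-2 library. Per the submitters' processing notes, BWA and mm10 were used. Neither the labels nor the file state the peak caller, read extension, library depth or scaling. Per the file headers, the authors deposited for each gene the mean peak height per library and the highest peak, as signal values that are never negative, with intervals called in each library separately.

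Region positions were computed from gene start and distance, and agreed between genes for 5714 of 5714 intervals. Log2 ratios used a pseudocount of 5. IL-2 heights of single regions are the whole numbers allowed by the gene means and highest peaks (mixed-integer bounds, scipy 1.17.1, tested on simulated heights). Control heights of regions were not solved, since for 6 genes the control mean was not a whole sum over all regions (tolerance 0.0051). Motifs were searched in RefSeq promoter windows. The identifiers of 9 of 9 listed members matched RefSeq, but only 4 of the 9 had the same coordinates there. Distances and placements rest on the deposited coordinates and can differ under RefSeq models. The named genes were all members, genes sharing their regions, 2 lists of related genes, and the 5 genes most like Cd69. The members and lists were chosen with earlier results of these data known. Counts of other per-sample columns were 0. Alternatives were pseudocounts of 1 and 10, ratios of 1.5 and 4, equal medians, the highest peak, higher signal only, distinct regions and 5 kb.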

Additional observations from a re-analysis of the deposited data

How the results depend on the processing

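No paired analysis was possible because there was a single library for each condition. The 8 members that passed the ratio of 2 became 3 with a pseudocount of 10 (56.4% of all listed genes), 0 after scaling to equal medians (5.98%), and 1 when the ratio had to reach 4 (23.1%). It was 3 among the 3 members whose mean over both libraries was at or above the table's median, a filter that IL-2 height largely sets, so that count supports nothing (98.3%). The count was 9 with a pseudocount of 1 (96.7%) or a ratio of 1.5 (98.3%), 8 with the highest peak (85.5%), and 7 without 2310001H17Rik, a setting added after seeing the data. Their median log2 ratio moved from 1.16 to 1.66 with a pseudocount of 1, 0.83 with 10, -0.0488 after scaling, 1.33 with the highest peak, 1.17 for the 2 members with a single region, whose control heights are the only ones determined, and 1.12 without 2310001H17Rik. Scaling reversed the sign for Cd69 (-0.16), Klrd1 (-0.16), Klrk1 (-0.13), Klrc1 (-0.0216), Clec2d (-0.0488) and Klrg1 (-0.19). By construction, this scaling takes out a difference common to all listed genes. Within 5 kb of a start lay 13 regions in place of 3 (59.1%, against 46.0% of all regions), which turned the order of the shares found at 1 kb. Depth and counting error are unknown, so small differences in height between members cannot be ranked.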

Other observations

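Within each of the 21 chromosomes the interval numbers of the IL-2 library rose with position, so numbers absent from the table mark intervals called near no listed gene. Between the regions of Klrb1c and Klra1, a span of 1596 kb, there were 39 interval numbers, of which 34 were listed and 5 were not. Of these 5, 1 lay between 128844160 and 129180672, a gap that contains Klrb1f, 2 lay between 129192608 and 129225360, between the regions of Clec2d and those of 2310001H17Rik, and 2 lay between 129747104 and 130237856. Their heights are not in the table. In fixed bins of 500 kb, the bins that start at 129000000 and 129500000 on chromosome 6 held 13 listed regions each. The median was 2 over the 1856 bins with at least 1 region, and the highest count was 31. Both bins ranked 23. They were picked because they hold members, so their place above the median supports nothing.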
